A study of Mus musculus with 12 samples.

Results

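The regions described here are 807 ATAC-seq peaks that were less accessible with DFMO than with vehicle in both Th17n and iTreg cells, of 48443 peaks in all (1.67%). ATAC-seq counts DNA cut by the Tn5 transposase, which reaches open chromatin. CPM is a peak's count divided by the library total over all peaks, scaled to 1000000. A peak was included where the mean of the 3 vehicle libraries was 5 CPM or more in both lineages and the DFMO mean was 0.6 or less of the vehicle mean in both. Of the 28104 peaks past the vehicle floor, 807 met the rule (2.87%). The members were chosen by the DFMO and vehicle values of all 12 libraries, so those values are given as a description and carry no test.

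The libraries came from spleen CD4+ T cells of C57BL/6 mice labelled WT (wild type) that were sorted as naive cells and stimulated with antibodies to CD3 and CD28 at 1 µg/ml. TGF-beta1 at 2 ng/ml was given to both, alone for iTreg (induced regulatory T) cells and together with IL-6 at 25 ng/ml for Th17n (non-pathogenic Th17) cells. Each was cultured for 68 hours with 100 µM DFMO or with vehicle, giving 4 groups of 3 libraries, Th17n with DFMO, Th17n with vehicle, iTreg with DFMO and iTreg with vehicle. The same 3 animals, numbered 1 to 3 in the labels, gave a library to each group, and values are listed in that order.

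DFMO (difluoromethylornithine) blocks ornithine decarboxylase, the enzyme that makes putrescine from ornithine at the head of polyamine synthesis. Polyamines bind nucleic acids, and spermidine is the donor for hypusine, a modified residue of the translation factor eIF5A. Activated T cells induce ornithine decarboxylase as they grow and divide. Open regions away from promoters are often enhancers, where factors of the AP-1, NFAT, NF-kB, RUNX and ETS families bind after T cell receptor stimulation.

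Promoter sequences were available for 49 start sites whose whole window, 250 bases before to 50 after the start, lay within one of 45 members. Those of Bnip3, Bcl2l11 and Ccr6 are shown because they mark the genes with a promoter among the closing regions in hypoxia, cell death and the Th17 programme; they were chosen after their values were seen. Bnip3 encodes a mitophagy receptor of the outer mitochondrial membrane that is induced by hypoxia. Bcl2l11 encodes BIM, a BH3-only protein that promotes apoptosis of T cells. Ccr6 encodes the chemokine receptor of Th17 cells. Sequences are from RefSeq (GRCm38.p6), 5′ to 3′ on the gene's strand. Capitals mark CACGTG, which holds the hypoxia response core ACGTG on both strands, in the Bnip3 window (chr7:138909457-138909756, minus strand), the GC box GGGCGG on either strand in the Bcl2l11 windows (chr2:128125788-128126087 and chr2:128127325-128127624, plus strand), and the NFAT and ETS core GGAAA in the Ccr6 window (chr17:8242276-8242575, plus strand).
Bnip3: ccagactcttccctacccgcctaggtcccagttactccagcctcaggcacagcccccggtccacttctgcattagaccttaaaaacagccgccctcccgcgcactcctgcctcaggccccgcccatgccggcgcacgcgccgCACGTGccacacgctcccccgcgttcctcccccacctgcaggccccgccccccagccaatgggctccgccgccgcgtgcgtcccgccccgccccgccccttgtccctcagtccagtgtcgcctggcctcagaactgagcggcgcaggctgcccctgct
Bcl2l11, upstream start: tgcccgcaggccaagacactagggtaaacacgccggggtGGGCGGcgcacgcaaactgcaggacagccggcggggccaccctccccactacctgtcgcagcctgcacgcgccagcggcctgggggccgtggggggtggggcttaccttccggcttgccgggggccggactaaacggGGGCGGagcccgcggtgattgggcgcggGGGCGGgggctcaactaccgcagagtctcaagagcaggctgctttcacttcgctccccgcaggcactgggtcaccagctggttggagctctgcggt
Bcl2l11, downstream start: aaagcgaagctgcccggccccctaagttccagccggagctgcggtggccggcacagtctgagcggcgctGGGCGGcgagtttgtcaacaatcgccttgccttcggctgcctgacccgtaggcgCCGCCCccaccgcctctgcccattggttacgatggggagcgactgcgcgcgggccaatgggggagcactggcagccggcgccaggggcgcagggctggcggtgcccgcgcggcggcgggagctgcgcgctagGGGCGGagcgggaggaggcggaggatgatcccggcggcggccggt
Ccr6: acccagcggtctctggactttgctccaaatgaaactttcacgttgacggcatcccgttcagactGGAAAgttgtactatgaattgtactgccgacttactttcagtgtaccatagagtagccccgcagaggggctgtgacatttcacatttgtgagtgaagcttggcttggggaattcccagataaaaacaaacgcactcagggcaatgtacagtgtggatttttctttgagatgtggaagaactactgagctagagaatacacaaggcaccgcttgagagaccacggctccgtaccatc

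The Bnip3 promoter peak (chr7:138909175-138910148) had 35.7, 23.8 and 25.4 CPM in Th17n with DFMO, against 58.8, 53.1 and 54.0 CPM in Th17n with vehicle. It also had 27.6, 24.7 and 28.7 CPM in iTreg with DFMO, against 67.0, 55.0 and 57.0 CPM in iTreg with vehicle. Every DFMO library was below every vehicle library of its lineage. A second member lay inside Bnip3 (chr7:138907137-138907395), with DFMO to vehicle ratios of 0.345 in Th17n and 0.423 in iTreg. The 2 Bcl2l11 windows lay in separate peaks, chr2:128125637-128126618 and chr2:128126945-128128084. At the upstream start, accessibility was 12.3, 19.5 and 26.7 CPM in Th17n with DFMO, against 41.1, 31.2 and 37.6 CPM in Th17n with vehicle. It was 29.3, 23.7 and 27.0 CPM in iTreg with DFMO, against 60.3, 54.6 and 49.1 CPM in iTreg with vehicle. The downstream start had ratios of 0.591 in Th17n and 0.564 in iTreg, so both start sites of this gene met the rule. At the Ccr6 promoter (chr17:8242142-8242631), values were 5.52, 5.19 and 7.16 CPM in Th17n with DFMO, against 19.6, 10.8 and 8.81 CPM in Th17n with vehicle. There were 7.63, 19.9 and 8.21 CPM in iTreg with DFMO, against 17.9, 15.7 and 28.3 CPM in iTreg with vehicle. The groups were apart in Th17n and overlapped in iTreg.

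Across the 49 windows, ACGTG was found in 18 (36.7%), against 27.8% of the 9095 windows within peaks past the vehicle floor and 19.6% of all 32851 promoter windows. The AP-1 letters TGANTCA were found in 5 (10.2%), against 4.29% and 7.81%. AGGTCA, a core bound by nuclear receptors such as ROR, was in 11 (22.4%), against 9.87% and 16.3%. The ETS letters CCGGAA were in 9 (18.4%), against 32.3% and 14.9%, and GGGCGG in 35 (71.4%), against 73.4% and 35.7%. All motifs were read on both strands, and ACGTG overlaps the E-box CACGTG, which was in 1 of the 49 windows (2.04%), that of Bnip3, against 11.05% and 7.15%. Some windows overlap each other, and a match is a description of letters, not of binding.

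A member peak near Fam114a1 (chr5:64969402-64970408) also holds the microRNA gene Mir574, whose mature forms are shown with the seed (bases 2 to 8) in capitals.
mmu-miR-574-5p: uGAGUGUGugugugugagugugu
mmu-miR-574-3p: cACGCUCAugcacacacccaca
This peak had 7.15, 10.4 and 9.12 CPM in Th17n with DFMO, against 21.5, 14.6 and 24.1 CPM in Th17n with vehicle. It had 10.6, 6.64 and 8.79 CPM in iTreg with DFMO, against 21.5, 16.1 and 18.2 CPM in iTreg with vehicle. Values with DFMO were below those with vehicle in both lineages without overlap. Mir7228 was the other microRNA gene within a member.

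Among the 807 peaks, the median DFMO to vehicle ratio was 0.486 in Th17n (quartiles 0.415 and 0.545) and 0.470 in iTreg (0.384 and 0.542). All peaks past the vehicle floor had medians of 0.996 and 0.961. The ratio was lower in Th17n at 369 members and lower in iTreg at 438, and it was under 0.4 in both at 78. A ratio of 0.6 or less was found at 2220 floor peaks in Th17n (7.90%) and at 2972 in iTreg (10.6%), so members made up 36.4% of the first set and 27.2% of the second. For scale, 192 floor peaks had ratios of 1.67 or more in both lineages. When each DFMO library was set against the vehicle library of the same animal, 667 members were lower in 6 of 6 pairs, 134 in 5 and 6 in 4. DFMO and vehicle values did not overlap in either lineage at 498 members (61.7%), against 4.76% of floor peaks. In the edgeR fit across 43726 peaks, 416 members were called lower in Th17n, where 4.28% of all tested peaks were, and 424 in iTreg, where 4.72% were. Both calls held at 286 and neither at 253. Nothing is read from these counts, since the rule used the same contrasts.

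**Figure D1:**
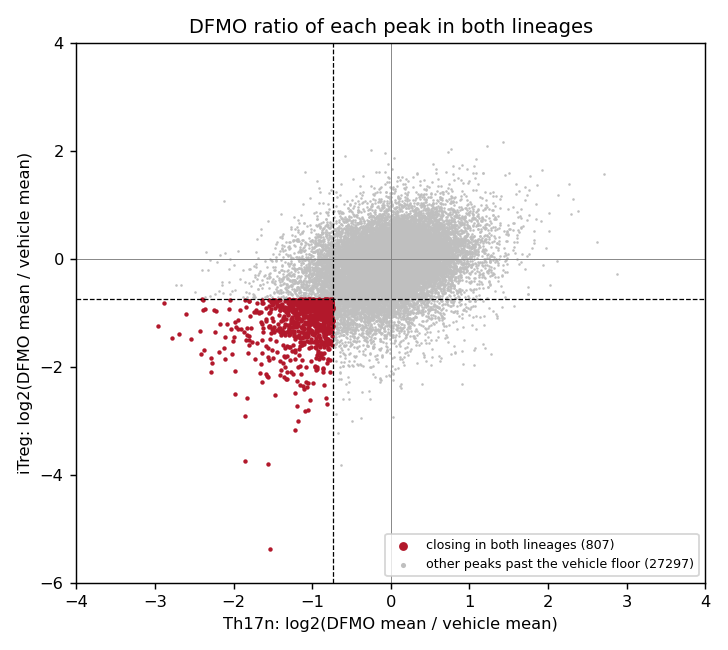
DFMO to vehicle ratio of group mean CPM (log2) for each of the 28104 peaks past the vehicle floor, Th17n on the x axis and iTreg on the y axis; dashed lines mark the ratio of 0.6. The 807 members fill the lower left corner by construction, with median ratios of 0.486 and 0.470.

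Choosing the peaks on 2 animals and reading the animal left out gave values that the choice had not used. With animal 1 left out, 1044 peaks were chosen, and their median ratios in animal 1 were 0.553 in Th17n and 0.650 in iTreg. With animal 2 left out, 1046 were chosen, with medians of 0.639 and 0.592 in animal 2. With animal 3 left out, 702 were chosen, with medians of 0.554 and 0.475. The chosen peaks were lower with DFMO in both lineages at 66.6%, 74.4% and 79.8% in the animal left out, against 28.1%, 33.3% and 31.3% of peaks past the floor. A ratio of 0.6 or less in both lineages was met again by 24.9%, 25.8% and 43.4%, against 3.32%, 3.17% and 4.99%. Most chosen peaks were thus lower again in the animal left out, and a smaller share passed the limit again. The chosen sets shared 593, 603 and 464 peaks with the 807 members. These values therefore describe peaks chosen on 2 animals, and are no test of the members, which were chosen on all 3.

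Depth bounds these values. Library totals ran from 1020937 to 6496550 counts, and the median member held 9 to 118 counts per library. The members took 0.913% ± 0.0574 of counts in Th17n with DFMO, 1.93% ± 0.0661 in Th17n with vehicle, 0.611% ± 0.0494 in iTreg with DFMO and 1.32% ± 0.173 in iTreg with vehicle (SD, n = 3). Peaks at gene ends took 48.2% ± 0.910 of counts in Th17n with DFMO, against 46.0% ± 0.495 in Th17n with vehicle, and 56.4% ± 0.988 in iTreg with DFMO, against 55.0% ± 1.19 in iTreg with vehicle, and its part in the results was not tested. Of 8 T cell markers 7 had a peak, while Cd79a and Ms4a1 of the B cell markers and Ncr1, Gzma and Cd8a of the cytotoxic and NK markers had none. Other markers of those lists had peaks: Klrb1c (its highest peak had means of 46.2 CPM in Th17n with DFMO, 43.1 in Th17n with vehicle, 66.3 in iTreg with DFMO and 59.1 in iTreg with vehicle), Cd8b1 (18.9, 19.3, 18.3 and 9.16 in the same groups) and Pax5 (21.3, 15.2, 22.9 and 26.3). All 5 myeloid markers had a peak, summing to 55.8 to 86.6 CPM in Th17n with DFMO, 69.5 to 85.7 in Th17n with vehicle, 63.3 to 75.9 in iTreg with DFMO and 54.0 to 72.1 in iTreg with vehicle. T cell marker peaks summed to 599 to 635 CPM in Th17n with DFMO, against 673 to 693 in Th17n with vehicle, and to 556 to 665 in iTreg with DFMO, against 617 to 638 in iTreg with vehicle. Regulatory T cell marker peaks summed to 897 to 948 CPM in Th17n with DFMO, against 1023 to 1112 in Th17n with vehicle, and to 747 to 922 in iTreg with DFMO, against 937 to 1015 in iTreg with vehicle. B cell marker peaks summed to 27.7 to 37.8 CPM in Th17n with DFMO, against 18.6 to 26.4 in Th17n with vehicle, and to 30.8 to 38.0 in iTreg with DFMO, against 30.7 to 50.3 in iTreg with vehicle. The part of these markers in the results was not tested. Peaks of the Th17 markers summed to 357 to 424 CPM in Th17n with DFMO, 516 to 570.1 in Th17n with vehicle, 127 to 185 in iTreg with DFMO and 201 to 254 in iTreg with vehicle. The T cell, regulatory T cell and Th17 sums include members, which the rule chose as low with DFMO. They lay at Ccr6 (3), Il17f, Ctla4 (3), Il2ra, Cd28 (2) and Thy1. Lower sums with DFMO thus follow in part from the choice. The single Foxp3 peak, at the gene that defines regulatory T cells, had means of 5.41 CPM in Th17n with DFMO, 16.1 in Th17n with vehicle, 5.14 in iTreg with DFMO and 4.27 in iTreg with vehicle, so it did not mark the iTreg libraries. In bulk libraries, fewer cells with an open region and a less open region in each cell cannot be told apart.

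Closing regions lay mostly away from the ends of genes. Of the 807, 425 lay inside the model of the nearest protein-coding gene (52.7%), 238 outside it within 100 kb (29.5%) and 34 had no gene in that range (4.21%). Within 1 kb of a gene end lay 110 (13.6%), against 37.8% of all peaks past the floor. Put the other way, the rule was met by 1.04% of floor peaks at gene ends, 4.22% of those inside genes and 3.64% of those outside. Peaks that met the ratio in Th17n only or in iTreg only were at gene ends at 15.3% and 15.9%, and the 192 opening in both at 8.33%, so a low share at gene ends was shared by each of these sets. Members were narrower than floor peaks, with a median width of 504 bp against 686 bp, and weaker, with a median vehicle level of 15.5 CPM against 21.7 CPM. Away from gene ends the medians were 498 bp against 565 bp and 15.3 CPM against 16.1 CPM. At gene ends they were 623 bp against 924 bp and 18.2 CPM against 38.6 CPM. Width and level moved with place, and their part was not tested.

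**Figure D2:**
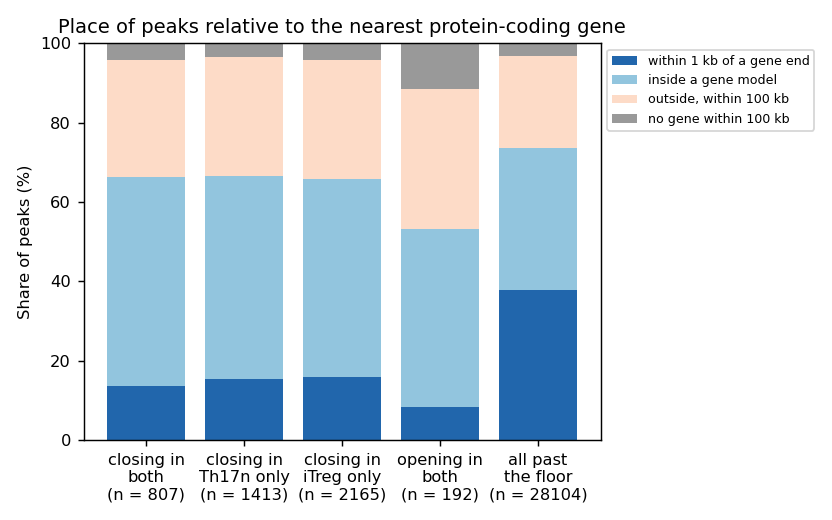
Share of peaks (%) at a gene end (within 1 kb), inside a gene model, outside it within 100 kb, or with no gene in that range, for 5 sets of peaks. Gene ends hold 13.6% of peaks closing in both lineages and 37.8% of all peaks past the vehicle floor.

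The members were spread over 665 nearest genes. Another member lay within 10 kb of 84 of them (10.4%), while 3.11% of the other floor peaks lay that near to a member. These 850 neighbours had median ratios of 0.921 in Th17n and 0.842 in iTreg, against 1.01 and 0.976 for the other floor peaks farther away. They were lower in both lineages at 48.7%, against 31.5%. Chromosome X held 5 members (0.620%) and 1.99% of floor peaks.

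The difference between lineages was not used by the rule, although the rule read the same libraries and the vehicle floor keeps out peaks near 0 in either lineage. In vehicle, closing regions were more often more accessible in Th17n than in iTreg. The edgeR test called 278 members higher in Th17n (34.4%) and 54 lower (6.69%), with a median log2 difference of 0.33. Among all tested peaks 25.2% were called higher and 19.3% lower, and among peaks past the floor 13.5% and 23.2%, with a median of -0.20. Read by place, away from gene ends 37.4% of members were higher and 7.03% lower, against 20.3% and 16.2% of floor peaks. At gene ends 15.5% of members were higher and 4.55% lower, against 2.22% and 34.6%. The order was also present with DFMO, where 250 members were called higher in Th17n (31.0%) and 39 lower (4.83%), against 14.6% and 18.2% of floor peaks and 22.5% and 14.7% of all tested peaks. The median log2 difference with DFMO was 0.45. Leaving out animal 3 from all groups cut the members called lower in vehicle to 16 and leaving out animal 2 cut them to 28; without the Th17n vehicle library of animal 2 or of animal 3 there were 34. With DFMO they were 19 without animal 2 and 23 without animal 3.

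**Figure D3:**
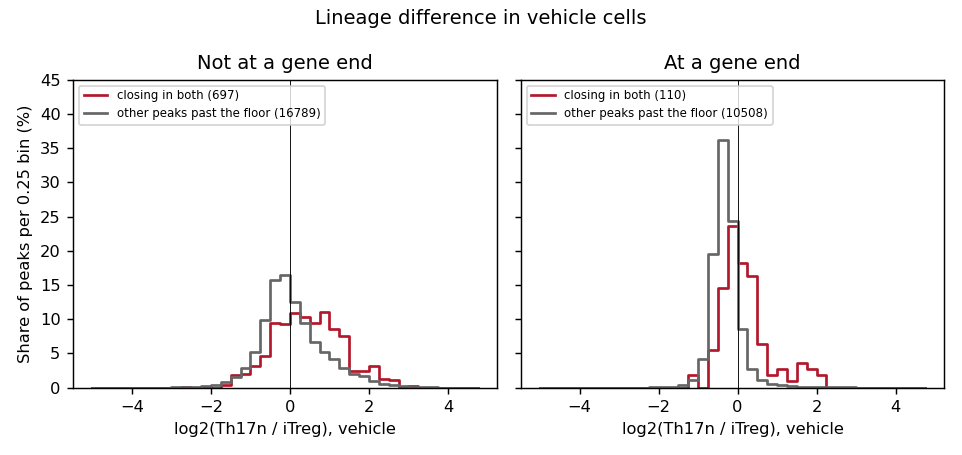
Distribution of the edgeR log2 difference of Th17n over iTreg in vehicle, in bins of 0.25, as a share of each set (%), for peaks away from gene ends (left) and at gene ends (right). The red line, for the 807 members, lies to the right of the grey line for other peaks past the floor in both panels.

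A higher level in Th17n in vehicle was not particular to the peaks closing in both lineages. Of 1413 peaks that met the ratio in Th17n only, 35.7% were higher in Th17n in vehicle and 5.66% lower, close to the 34.4% and 6.69% of members. Of 2165 that met it in iTreg only, 23.6% were higher and 14.6% lower, against 13.5% and 23.2% of all floor peaks. The ratios that chose these sets divide by the vehicle means compared here, so the vehicle shares follow in part from the choice. With DFMO the sets differed, which in part also follows from how they were chosen. The Th17n-only set had 10.8% higher in Th17n and 21.2% lower, and the iTreg-only set 52.3% and 0.878%. Of the 192 opening in both, 10.4% were higher in Th17n in vehicle and 27.6% lower. The interaction, that is the log2 DFMO effect of Th17n less that of iTreg, had a median of 0.097 over members (quartiles -0.16 and 0.37), a value the rule constrains. Over all tested peaks it was called higher at 0.835% and lower at 0.478%.

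Receptors of the TNF family and of co-stimulation had the largest share of members of the gene lists examined. Of 79 floor peaks nearest to the 16 genes of this list, 10 were members (12.7%, against 2.87% of all floor peaks), and the list's floor peaks had median ratios of 0.811 in Th17n and 0.805 in iTreg. Tnfrsf8, which encodes CD30, held 5. Tnfrsf18 encodes GITR, a co-stimulatory receptor of regulatory and activated T cells. Its member (chr4:156030655-156031480) had 26.6, 18.2 and 24.1 CPM in Th17n with DFMO, against 97.9, 88.5 and 83.4 CPM in Th17n with vehicle. The same region had 25.8, 47.9 and 41.3 CPM in iTreg with DFMO, against 76.7, 96.3 and 104 CPM in iTreg with vehicle. All 3 DFMO values were far below the vehicle values in each lineage, with ratios of 0.255 in Th17n and 0.416 in iTreg. The vehicle levels of Th17n and iTreg did not pass the test, at log2 -0.14 ± 0.16 (SE, n = 3 each; edgeR adjusted p = 0.504). The other Tnfrsf18 floor peak (chr4:156021507-156022840) was not a member, with ratios of 0.596 in Th17n and 0.781 in iTreg. Its mean vehicle level over both lineages was 148 CPM, against 91.1 CPM at the member. A member inside Tnfrsf9, the gene of 4-1BB (chr4:150924135-150925264), had 25.3, 27.3 and 10.4 CPM in Th17n with DFMO, against 42.1, 55.1 and 44.6 CPM in Th17n with vehicle. The other values were 18.2, 10.4 and 17.9 CPM in iTreg with DFMO, against 39.9, 47.5 and 61.1 CPM in iTreg with vehicle. Cd28 encodes the receptor whose antibody was used to stimulate these cells. Of its 2 members, the one at chr1:60765048-60766105 had 13.0, 16.0 and 15.0 CPM in Th17n with DFMO, against 42.1, 44.8 and 37.0 CPM in Th17n with vehicle. It was weaker in the second lineage, at 2.93, 3.80 and 4.40 CPM in iTreg with DFMO, against 6.14, 8.17 and 13.1 CPM in iTreg with vehicle. Neither lineage showed overlap, and the vehicle level was higher in Th17n by log2 2.03 ± 0.27 (SE, n = 3 each; edgeR adjusted p = 3.44e-08). The other, at chr1:60771789-60772260, did not pass the lineage test in vehicle (log2 -0.037 ± 0.32 (SE, n = 3 each; edgeR adjusted p = 0.938)), with ratios of 0.481 in Th17n and 0.144 in iTreg. Tnfrsf4, the gene of OX40, had a single floor peak, a member at a gene end (chr4:156016574-156016768), with ratios of 0.471 in Th17n and 0.142 in iTreg.

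Inhibitory receptors had 6 members of 61 floor peaks (9.84%), at Ctla4 (3), Cd274, Lag3 and Tigit. Ctla4 encodes a receptor that takes the CD28 ligands from antigen-presenting cells. The member at its gene end (chr1:60916453-60917552) had 25.0, 24.2 and 7.16 CPM in Th17n with DFMO, against 69.5, 59.1 and 71.1 CPM in Th17n with vehicle. It had 9.39, 9.96 and 14.4 CPM in iTreg with DFMO, against 27.1, 30.1 and 24.5 CPM in iTreg with vehicle. The Th17n library of animal 3 was the lowest of its group with DFMO, and no values overlapped. This peak was higher in Th17n in vehicle by log2 1.21 ± 0.22 (SE, n = 3 each; edgeR adjusted p = 1.94e-05). Icos and Nrp1, looked up beside these genes, had no member among 9 and 8 floor peaks, where 2.87% of all floor peaks were members. Nothing is read from counts this small. At Icos 1 floor peak met the ratio in Th17n only and 3 in iTreg only, and at Nrp1 2 met it in iTreg only.

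**Figure D4:**
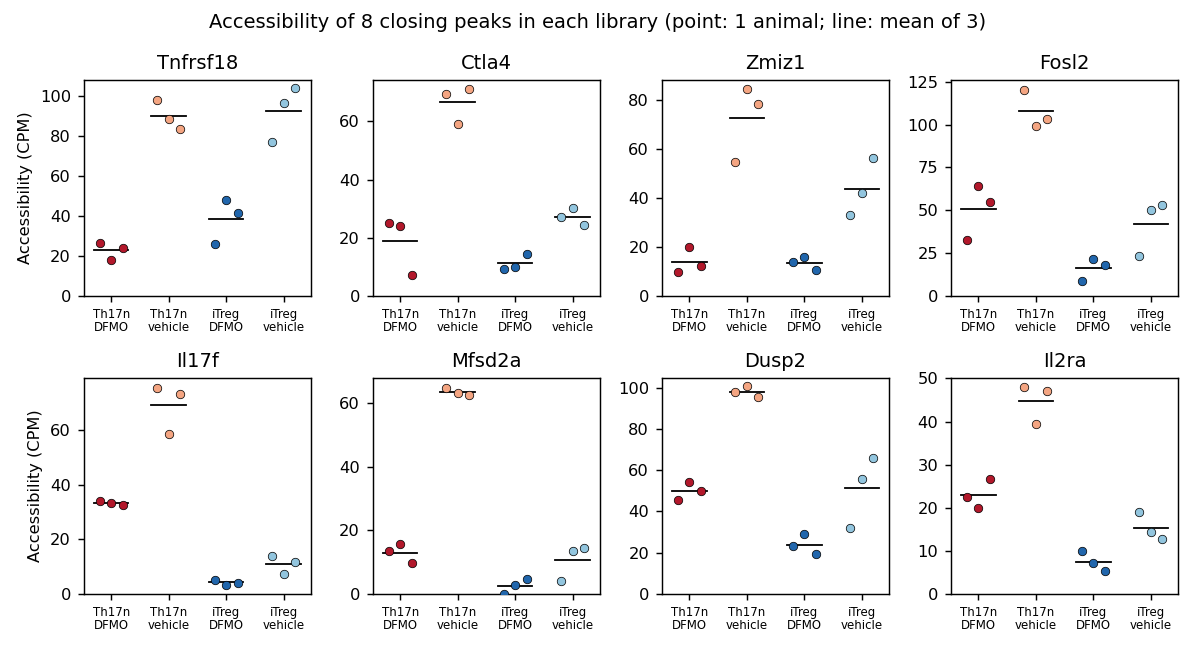
CPM in each library of the strongest member of 8 genes, by group, with DFMO left of vehicle; points are the 3 animals and lines the group means. Values with DFMO lie below those with vehicle in each lineage; at Mfsd2a in iTreg 1 DFMO library lies just above the lowest vehicle library.

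Genes of the Th17 programme held 11 members of 91 floor peaks (12.1%), with median ratios over the list's floor peaks of 0.857 in Th17n and 0.793 in iTreg. They lay at Ccr6 (3), Il6ra (3), Rora (2), Hif1a, Il17f and Irf4. Il17f encodes a cytokine of Th17 cells. Its member (chr1:20759610-20760279) had 34.1, 33.3 and 32.6 CPM in Th17n with DFMO, against 75.4, 58.5 and 73.1 CPM in Th17n with vehicle. Its levels were 5.28, 3.32 and 4.10 CPM in iTreg with DFMO, against 13.8, 7.31 and 11.5 CPM in iTreg with vehicle. The region was open mainly in Th17n and was lower with DFMO in both lineages. The difference in vehicle was log2 2.63 ± 0.23 (SE, n = 3 each; edgeR adjusted p = 5.69e-13). A peak outside Hif1a (chr12:73876456-73877296), the gene of a factor that responds to low oxygen, was higher in Th17n by log2 1.22 ± 0.29 (SE, n = 3 each; edgeR adjusted p = 0.000499) and had ratios of 0.467 in Th17n and 0.188 in iTreg. Il6ra encodes the receptor chain for IL-6, the cytokine given to Th17n cells only, and its lowest member (chr3:89875964-89876269) had ratios of 0.331 in Th17n and 0.229 in iTreg. Of the 3 Ccr6 members, 2 were called lower in Th17n in vehicle and 1 higher. The lower peak at chr17:8233474-8233902 had a difference of log2 -1.18 ± 0.33 (SE, n = 3 each; edgeR adjusted p = 0.00315), a call lost without animal 3. Il17a had 1 floor peak, which met the ratio in iTreg only and was not a member.

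The Treg programme held 2 members of 84 floor peaks (2.38%), at Il2ra and Swap70, close to the 2.87% of all floor peaks. Ctla4, one of the regulatory T cell markers summed above, and Tnfrsf18 and Tnfrsf4 were counted in other lists. Another 5 floor peaks of this list met the ratio in Th17n only and 11 in iTreg only, against 1413 and 2165 of all 28104. Il2ra encodes the alpha chain of the IL-2 receptor. Its member (chr2:11625427-11626223) had 22.4, 19.9 and 26.7 CPM in Th17n with DFMO, against 48.0, 39.4 and 47.0 CPM in Th17n with vehicle. It had 9.98, 7.12 and 5.28 CPM in iTreg with DFMO, against 18.9, 14.4 and 12.7 CPM in iTreg with vehicle. The groups were apart in both lineages, and the peak was higher in Th17n in vehicle by log2 1.50 ± 0.24 (SE, n = 3 each; edgeR adjusted p = 1.85e-06). The other 12 Il2ra floor peaks were not members. Genes of IL-2 and STAT signalling held 7 of 111 (6.31%), 1 each at Bcl2, Il4ra, Jak1, Mcl1, Stat4, Stat5a and Stat5b. The peak outside Il4ra, the IL-4 receptor gene (chr7:125543518-125543902), was higher in Th17n by log2 2.64 ± 0.29 (SE, n = 3 each; edgeR adjusted p = 2.50e-10), with ratios of 0.463 in Th17n and 0.410 in iTreg. TGF-beta signalling held 1 of 81 (1.23%), inside Smad3. Th1 and Th2 genes held 3 of 51 (5.88%), at Cxcr3, Il12rb2 and Runx3.

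Factors that act after T cell receptor stimulation held 12 members of 174 floor peaks (6.90%), among them peaks at Nfkb1 (3), Fosl2 (2), Batf3, Bhlhe40, Fos, Nfatc2, Nfkb2 and Nfkbia. Fosl2 encodes an AP-1 subunit. The stronger of its members (chr5:32132971-32133880) had 32.5, 64.5 and 54.7 CPM in Th17n with DFMO, against 120.5, 99.1 and 103 CPM in Th17n with vehicle. It had 8.80, 21.8 and 18.2 CPM in iTreg with DFMO, against 23.5, 50.1 and 53.0 CPM in iTreg with vehicle. DFMO and vehicle libraries were apart in Th17n and, more narrowly, in iTreg. In vehicle it was higher in Th17n by log2 1.20 ± 0.20 (SE, n = 3 each; edgeR adjusted p = 3.10e-06), and the second (chr5:32154977-32155801) by log2 2.34 ± 0.33 (SE, n = 3 each; edgeR adjusted p = 1.08e-07). Nfkb1 encodes p105, the precursor of the NF-kB subunit p50, and its members did not pass the lineage test in vehicle. One of them (chr3:135594132-135594556) had 10.1, 10.4 and 6.51 CPM in Th17n with DFMO, against 25.5, 34.8 and 30.2 CPM in Th17n with vehicle. The other values were 12.3, 12.8 and 21.1 CPM in iTreg with DFMO, against 30.2, 30.1 and 31.1 CPM in iTreg with vehicle.

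Genes that restrain receptor signalling held 10 of 120 (8.33%), at Ubash3b (3), Cblb (2), Ptpn22 (2), Dgkz, Dusp2 and Ptpn6. Cblb encodes a ubiquitin ligase and Ptpn22 and Ptpn6 phosphatases that act close to the receptor. Dusp2 encodes a nuclear phosphatase of MAP kinases. The Dusp2 member (chr2:127322679-127324214) had 45.5, 54.5 and 50.1 CPM in Th17n with DFMO, against 97.9, 101 and 95.4 CPM in Th17n with vehicle. It also had 23.5, 28.9 and 19.3 CPM in iTreg with DFMO, against 32.2, 55.7 and 65.7 CPM in iTreg with vehicle. Both lineages were apart, and in vehicle Th17n was higher by log2 0.82 ± 0.17 (SE, n = 3 each; edgeR adjusted p = 7.78e-05).

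Naive and memory T cell genes held 10 of 204 floor peaks (4.90%), among them peaks at Il6ra (3), Ccr7 (2), Bach2, Ets1 and Myb, and homing and adhesion genes 4 of 71 (5.63%), Itgav and Selplg included. Ccr7 encodes a chemokine receptor that guides T cells into lymph nodes. A Ccr7 member (chr11:99168101-99168597) had 5.52, 5.19 and 7.81 CPM in Th17n with DFMO, against 19.6, 18.3 and 19.7 CPM in Th17n with vehicle. It had 11.7, 10.4 and 11.7 CPM in iTreg with DFMO, against 26.1, 35.7 and 52.4 CPM in iTreg with vehicle. Its vehicle level was lower in Th17n, with a difference of log2 -1.09 ± 0.25 (SE, n = 3 each; edgeR adjusted p = 0.000386), and that call was lost without animal 3.

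Among metabolic genes, those of hypoxia and glycolysis held 10 of 121 floor peaks (8.26%), at Bnip3 (2), Ddit4 (2), Rora (2), Gapdh, Hk2, Mxi1 and Slc2a3. Another 4 of this list's floor peaks opened in both lineages, with ratios of 1.67 or more. Over all 28104 floor peaks, 192 did. Hk2 encodes a hexokinase, Slc2a3 a glucose transporter and Ddit4 an inhibitor of mTORC1. Lipid and sterol genes held 3 of 66 (4.55%), one of them at Mfsd2a, the gene of a lysophospholipid transporter. The Mfsd2a member (chr4:122951346-122951879) had 13.6, 15.6 and 9.77 CPM in Th17n with DFMO, against 64.6, 63.3 and 62.5 CPM in Th17n with vehicle. It had 0, 2.85 and 4.69 CPM in iTreg with DFMO, against 4.09, 13.5 and 14.4 CPM in iTreg with vehicle. It was higher in Th17n in vehicle by log2 2.38 ± 0.28 (SE, n = 3 each; edgeR adjusted p = 2.63e-09), and in iTreg 1 DFMO library with 4.69 CPM overlapped the vehicle library with 4.09 CPM. Polyamine genes had no member among 34 floor peaks, the 6 of Odc1 (ornithine decarboxylase) included, with list medians of 1.11 in Th17n and 0.995 in iTreg. Ribosome and translation genes had none among 31, and cell cycle genes 1 of 90, inside E2f2. Of all floor peaks 2.87% were members, so few or none would be found among so few peaks, and nothing is read from these counts. In each of the polyamine and ribosome lists 1 floor peak met the ratio in Th17n only and 1 in iTreg only.

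Chromatin modifiers held 8 of 119 floor peaks (6.72%), at Zmiz1 (3), Dnmt3a, Ep300, Ezh2, Hdac7 and Tet3. Zmiz1 encodes a transcriptional coregulator of the PIAS-like family. Its strongest member (chr14:25561693-25562744) had 9.75, 19.9 and 12.4 CPM in Th17n with DFMO, against 54.9, 84.7 and 78.7 CPM in Th17n with vehicle. It also had 14.1, 16.1 and 10.6 CPM in iTreg with DFMO, against 33.2, 42.1 and 56.4 CPM in iTreg with vehicle. No values overlapped, and the ratios were 0.193 in Th17n and 0.309 in iTreg. In vehicle it was higher in Th17n by log2 0.67 ± 0.20 (SE, n = 3 each; edgeR adjusted p = 0.00487), a call lost without the Th17n vehicle library of animal 2 and without animal 2 in all groups. The 18 other floor peaks of Zmiz1 had median ratios of 0.806 and 0.841. Ezh2 encodes the methyltransferase of Polycomb complex 2, and its member (chr6:47532489-47532989) was higher in Th17n by log2 1.15 ± 0.29 (SE, n = 3 each; edgeR adjusted p = 0.00114), a call lost without animal 3. Cytoskeleton genes held 5 of 99 (5.05%), 2 each at Lcp1 and Rftn1 and 1 at Actn4. Lists of other cell types held 1 of 11 for cytotoxic and NK cells (Gzmb), 1 of 11 for B cells (Ebf1) and none of 9 for myeloid cells. Peaks of the cytotoxic and NK markers summed to 84.6 to 128 CPM in Th17n with DFMO, against 94.6 to 107 in Th17n with vehicle, and to 129 to 137 in iTreg with DFMO, against 93.6 to 114 in iTreg with vehicle, and their part in these results was not tested. Some genes, such as Il6ra and Rora, are in more than 1 list, and nothing particular to a list is read from its share.

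At 80 genes 2 or more members had the same nearest gene, 188 members in all. Runx2, a Runt-family factor best known from bone, had the most, 7 of its 17 floor peaks over 291 kb. Their ratios ran from 0.145 to 0.576 in Th17n and from 0.228 to 0.578 in iTreg, while its 10 other floor peaks had medians of 0.832 and 0.886. The Runx2 members did not share a lineage pattern: 3 were higher in Th17n in vehicle and 1 was lower, although the call at one of the 3 was lost on leaving out any single animal. The lower one (chr17:44536608-44537188) had 0.650, 0.865 and 1.95 CPM in Th17n with DFMO, against 3.92, 9.08 and 10.9 CPM in Th17n with vehicle. It had 8.80, 11.9 and 4.10 CPM in iTreg with DFMO, against 20.97, 20.9 and 26.7 CPM in iTreg with vehicle. No DFMO value reached a vehicle value of its lineage. This peak differed by log2 -1.45 ± 0.33 (SE, n = 3 each; edgeR adjusted p = 0.000367), and the one at chr17:44766322-44766757 by log2 2.32 ± 0.37 (SE, n = 3 each; edgeR adjusted p = 1.36e-06). Tnfrsf8 had 5 of 14 floor peaks over 81.0 kb, 4 of them higher in Th17n, 1 of which was not called without animal 1. The most lineage-different (chr4:145310866-145311436) had 16.2, 19.0 and 18.9 CPM in Th17n with DFMO, against 47.0, 37.1 and 37.3 CPM in Th17n with vehicle. It had 5.28, 3.32 and 1.47 CPM in iTreg with DFMO, against 2.56, 7.52 and 6.87 CPM in iTreg with vehicle. DFMO and vehicle were apart in Th17n and overlapped in iTreg, and the lineages differed in vehicle by log2 2.61 ± 0.30 (SE, n = 3 each; edgeR adjusted p = 1.28e-09). Prkca, which encodes protein kinase C alpha, had 5 of 15. Impa2, an inositol monophosphatase gene, had 4 of 7, all higher in Th17n in vehicle. Calls at 2 of the 4 were lost on leaving out single libraries or animals.

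**Figure D5:**
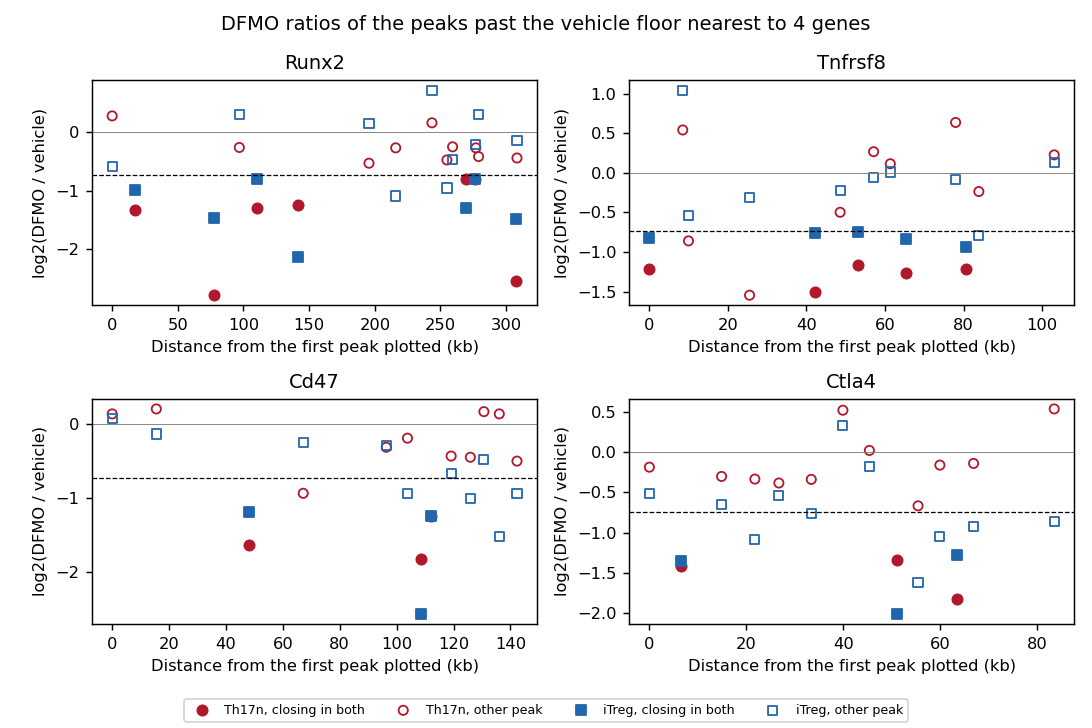
DFMO to vehicle ratios (log2) of all peaks past the vehicle floor nearest to Runx2, Tnfrsf8, Cd47 and Ctla4, by distance (kb) from the first peak plotted; red circles are Th17n, blue squares iTreg, filled symbols members, and the dashed line the ratio of 0.6. The other peaks have median ratios of 0.832 in Th17n and 0.886 in iTreg at Runx2 (10 peaks), 1.08 and 0.940 at Tnfrsf8 (9), 0.837 and 0.670 at Cd47 (10) and 0.879 and 0.590 at Ctla4 (11).

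Several of the lowest ratios were found at weak peaks. Inside Sel1l, which encodes an adaptor of endoplasmic reticulum-associated degradation (chr12:91845366-91845640), accessibility was 5.20, 3.46 and 3.91 CPM in Th17n with DFMO, against 6.86, 13.4 and 16.2 CPM in Th17n with vehicle. It was 0, 0.474 and 0 CPM in iTreg with DFMO, against 7.16, 7.31 and 5.26 CPM in iTreg with vehicle. The 2 iTreg libraries listed at 0 with DFMO make this ratio rest on few counts. The call that it was higher in Th17n in vehicle, log2 0.92 ± 0.38 (SE, n = 3 each; edgeR adjusted p = 0.0474), was lost with the replicate block, with DESeq2, without the filter on low counts and on leaving out the Th17n vehicle library of animal 2 or 3, any iTreg vehicle library, animal 2 or animal 3. A region outside Lcn5 (chr2:25666473-25666958) had the lowest Th17n ratio, 0.128, with 0, 1.30 and 0.651 CPM in Th17n with DFMO, against 4.90, 4.46 and 5.87 CPM in Th17n with vehicle. Cd47 encodes the ligand of SIRP-alpha, a signal against phagocytosis. Its member with the lowest ratios (chr16:49948328-49948858) had 4.55, 3.46 and 4.56 CPM in Th17n with DFMO, against 21.5, 13.4 and 9.69 CPM in Th17n with vehicle. It had 7.04, 2.85 and 4.69 CPM in iTreg with DFMO, against 19.9, 30.5 and 36.0 CPM in iTreg with vehicle. It was lower in Th17n in vehicle, with a difference of log2 -1.17 ± 0.30 (SE, n = 3 each; edgeR adjusted p = 0.00121), a call lost without animal 3. Slc6a6, the taurine transporter gene, and Megf11 had ratios of 0.338 in Th17n and 0.0722 in iTreg and 0.276 in Th17n and 0.0742 in iTreg.

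The members with the smallest adjusted p between lineages in vehicle were higher in Th17n. A peak outside Tpt1 (chr14:75851916-75852420) had 29.6, 35.5 and 28.0 CPM in Th17n with DFMO, against 61.7, 51.9 and 54.0 CPM in Th17n with vehicle. It had 2.93, 2.85 and 4.10 CPM in iTreg with DFMO, against 4.09, 6.23 and 7.68 CPM in iTreg with vehicle. The lineages did not overlap in either treatment, while in iTreg the highest DFMO value reached the lowest vehicle value. The difference in vehicle was log2 3.04 ± 0.26 (SE, n = 3 each; edgeR adjusted p = 1.77e-13). Peaks near Gfpt2, an enzyme gene of hexosamine synthesis, and Lpcat1, which encodes a lysophospholipid acyltransferase, differed by log2 3.08 ± 0.29 (SE, n = 3 each; edgeR adjusted p = 5.38e-12) and log2 2.65 ± 0.28 (SE, n = 3 each; edgeR adjusted p = 6.38e-11). The smallest adjusted p the other way lay inside Kcnj15, a potassium channel gene (chr16:95275554-95276066), with 1.62, 0.865 and 0 CPM in Th17n with DFMO, against 10.8, 2.77 and 2.64 CPM in Th17n with vehicle. It had 4.70, 14.2 and 7.33 CPM in iTreg with DFMO, against 23.0, 20.2 and 25.5 CPM in iTreg with vehicle. Values with DFMO and with vehicle did not overlap in either lineage, and the peak was lower in Th17n in vehicle, with a difference of log2 -2.60 ± 0.42 (SE, n = 3 each; edgeR adjusted p = 1.39e-06). One of 3 members of Ggta1, which encodes a galactosyltransferase, was lower in Th17n, with a difference of log2 -1.39 ± 0.23 (SE, n = 3 each; edgeR adjusted p = 3.34e-06), and another was higher by log2 2.59 ± 0.32 (SE, n = 3 each; edgeR adjusted p = 4.39e-09). One of 2 members of Pecam1 was lower in Th17n, with a difference of log2 -1.74 ± 0.32 (SE, n = 3 each; edgeR adjusted p = 1.43e-05), and the other was higher by log2 1.13 ± 0.22 (SE, n = 3 each; edgeR adjusted p = 3.91e-05). One of 2 members of Cd83 and the single member of Tnc were lower in Th17n, with a difference of log2 -1.26 ± 0.24 (SE, n = 3 each; edgeR adjusted p = 3.03e-05) and log2 -1.24 ± 0.25 (SE, n = 3 each; edgeR adjusted p = 5.40e-05), and the other Cd83 member was not called.

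At the limit of the rule, the members just inside were peaks at B4galt2, at Impa2 and at a site on chromosome 2 with no gene within 100 kb, with ratios in the other lineage of 0.491, 0.537 and 0.468 and the larger ratio at the limit. Peaks at Cnmd, Igf2r and Fah lay just outside it, with smaller ratios of 0.596, 0.590 and 0.540. Members near the limit and peaks just past it are therefore alike in their ratios.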

How the data were processed

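Chromatin accessibility was measured by ATAC-seq (37 bp read pairs; 30 min of tagmentation and 5 pre-amplification cycles) in 12 libraries of live-sorted, frozen and thawed cells. The authors deposited a table of unscaled counts for 48443 peaks (build mm10). Tools named per the submitters' processing notes are Trimmomatic, FastQC, MACS2 and Bowtie2; settings, versions and whether libraries were pooled for peak calling were not given in the sources used. Peak starts are printed as deposited, since their counting base is not stated.

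CPM was each count over its library total. Counts were tested with edgeR 4.0.16 in R 4.3.3 (filterByExpr with a minimum count of 10, TMM, 4 group means over 12 libraries, glmQLFit and glmQLFTest, Benjamini-Hochberg adjusted p, threshold 0.05), which tested 43726 peaks. The tests were checked on simulated data. DESeq2 1.42.0 was an alternative. Each peak was given to the nearest RefSeq protein-coding gene model (GRCm38.p6) within 100 kb, which does not show the gene it controls. The labels tie same-numbered libraries to 1 animal, so a fit with the animal as a block was a paired alternative; after group means were removed, 18 same-animal pairs correlated at -0.055 to 0.075, and 7 of 12 libraries correlated best with their own animal. P-values rest on 3 animals.

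The members, the 21 gene lists, the tests and the rule for named peaks were chosen with earlier results of these data known. The rule names the 10 members with the lowest ratios, the 10 strongest, genes with most members, up to 6 members higher and 6 lower in Th17n by adjusted p, up to 3 per gene list, the peaks beside the limit and a fixed set of genes. Named by that rule were 105 members. Alternatives were other floors and ratio limits, scalings, filters, pooled or thinned counts, and leaving out libraries or animals. Some items are not reported here.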

Additional observations from a re-analysis of the deposited data

Results flagged for a closer look

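The DFMO effect differed between lineages, by a test of the interaction, at 574 of 43726 peaks over the whole table (edgeR adjusted p under 0.05), 365 higher in Th17n than in iTreg (0.835%) and 209 lower (0.478%). This count was from 13 without animal 3 to 1370 without the iTreg DFMO library of animal 2. The rule for closing in both lineages caps both ratios but does not require like effects, and because it used these contrasts the interaction was not tested over the members.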

How the results depend on the processing

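The number of closing regions followed the limits of the rule. It was 422 with a vehicle floor of 10 CPM and 1359 with 2 CPM, and 276 with a ratio of 0.5 or less and 1852 with 0.7 or less, against 807. Other scalings and summaries gave 727 to 906, and counts thinned to the smallest library, an alternative chosen after seeing the data, gave 949, of which 526 were members. Leaving out a library or an animal gave 686 to 1046. The share of members at gene ends was 17.6% within 2 kb and 11.2% with a ratio of 0.5 or less, against 13.6%.

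Calls over all peaks depended on single libraries: DFMO calls in Th17n were 681 to 4607 (3841 with all libraries), with 1770, 2299, 1819 and 1637 without the Th17n libraries of animal 1 and animal 3 with DFMO and of animal 2 and animal 3 with vehicle, and 2089, 1371 and 681 without animals 1, 2 and 3. In iTreg they were 236 to 4351 (3742 with all), with 2490 and 1416 without animal 1 and animal 3 with DFMO, 1863 and 1427 without animal 2 and animal 3 with vehicle, and 1868 and 236 without animals 2 and 3. Members called between lineages were 236 to 350 in vehicle (208 to 293 higher in Th17n, 16 to 70 lower) and 196 to 298 with DFMO (173 to 257 higher, 19 to 41 lower). Interaction calls were 13 to 1370, and the cause was not tested. Among called members 77.3% to 93.2% were higher in Th17n in vehicle under every setting run, against 35.7% to 47.2% of called peaks past the vehicle floor (36.8% with all libraries and 45.4% with library totals only).

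With the replicate block the counts were 3729, 3679, 329 (275 higher, 54 lower), 288 (251 and 37) and 686 for the interaction, and in vehicle it ended the lineage calls at Gzmb, Sel1l and 1 Ubash3b peak among the peaks named. Over the peaks named and all alternatives, 1996 values kept their direction and call, 81 lost it and 23 gained it, and no direction turned. Few counts limit single ratios: the median member held 9 to 118 counts per library, and 9 to 17 in the iTreg libraries with DFMO.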
